A study of Mus musculus with 8 samples.

Results

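The 9 genes described here encode the enzymes of serine synthesis and of the mitochondrial and cytosolic arms of folate one-carbon metabolism. They were taken by name from the deposited gene table, and all 9 of the 9 names were found among its 14012 genes. The first 3 of them (Phgdh, Psat1 and Psph) make serine from a glycolytic intermediate. Another 4 (Shmt2, Mthfd2, Mthfd1l and Aldh1l2) belong to the mitochondrial folate arm, and 2 (Shmt1 and Mthfd1) to the cytosolic arm.

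RNA was sequenced from quadriceps femoris (QF), a large thigh muscle, of 4 mice labelled Grpel1 knockout and 4 labelled Grpel1 flox/flox control, with 1 library per mouse. GRPEL1 is the nucleotide exchange factor of mitochondrial HSP70, the motor of protein import into the mitochondrial matrix. In the knockouts (Grpel1skm-/-) a tamoxifen-inducible Cre-ERT2, driven by the human skeletal muscle α-actin promoter, deletes the floxed gene, so that only muscle fibres are targeted and the other cells of the muscle keep the gene. Tamoxifen was injected on 5 days from an age of 5 weeks. Both groups carry the floxed allele, and the study describes flox/flox mice both with and without tamoxifen. Which of these the sequenced controls were is not stated, so effects of tamoxifen or Cre cannot be told apart from those of the deletion here. The age of each mouse at sampling is not stated for the libraries.

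Serine is the main donor of one-carbon units, which are carried on folate and used to make purines, thymidylate and methionine. PHGDH, PSAT1 and PSPH convert 3-phosphoglycerate to serine in sequence. Parallel enzymes in the mitochondrial matrix and in the cytosol then move the one-carbon unit of serine onto folate and oxidise it, and formate links the compartments. Adult muscle has little need of one-carbon units for cell division, and genes of serine synthesis and of the mitochondrial arm are known targets of ATF4, the transcription factor of the integrated stress response (ISR).

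Each library held between 16017565 and 20361144 counts. Grpel1 itself lay between 64.1 and 71.2 in control libraries and between 59.9 and 71.9 in knockout libraries. These are counts scaled per 1e+06 of the library after edgeR's TMM factors (CPM). The count of the whole gene thus did not check the labels, and each direction given here rests on them. The paper reports less GRPEL1 protein in this muscle of knockout mice by immunoblot, which does not check the labels of these libraries. None of 11 fibre markers that define skeletal muscle was at 0 in any library. Not all were abundant: Myh7 and Tnnt1 had control means of 16.3 and 6.29 CPM, and Myh7 was at 6.18 CPM in knockout replicate 2. The sum of the 11 lay between 204680 and 260797 CPM in control and between 68172 and 97021 CPM in knockout libraries. In edgeR 7 of the 11 were lower and 2 higher, or 63.6% and 18.2%, beside 21.1% and 23.6% of all genes. The upper limit for a gene without counts, 3 counts at 95%, is worth 0.119 to 0.242 CPM here and covers counting error only. That the libraries are separate mice rests on the animal numbers in the labels.

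Of the 9 enzyme genes, 6 were higher and 0 lower in knockout than in control muscle (edgeR, threshold of 0.01 on the adjusted p), where 23.6% of all genes were higher, 21.1% lower and 44.7% either. All 4 listed genes of the mitochondrial arm were among the 6, together with Phgdh and Psat1 of serine synthesis, while neither listed gene of the cytosolic arm was. The mitochondrial Mthfd2l and the cytosolic Aldh1l1, described below, are not among the 9 and were not past the threshold. All 6 rose by 2-fold or more, as 9.83% of all genes did, and 5 of them by 4-fold or more, as did 3.39% of all genes. The groups did not overlap in the same 6 genes, and in 53.4% of all genes counted in either direction. Together the 9 genes took 0.0103 to 0.0107% of the unscaled counts of a control library and 0.0728 to 0.0884% of those of a knockout library. After TMM scaling the rise was smaller, with sums of 126 to 138 CPM in control and 548 to 724 CPM in knockout libraries.

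**Figure D1:**
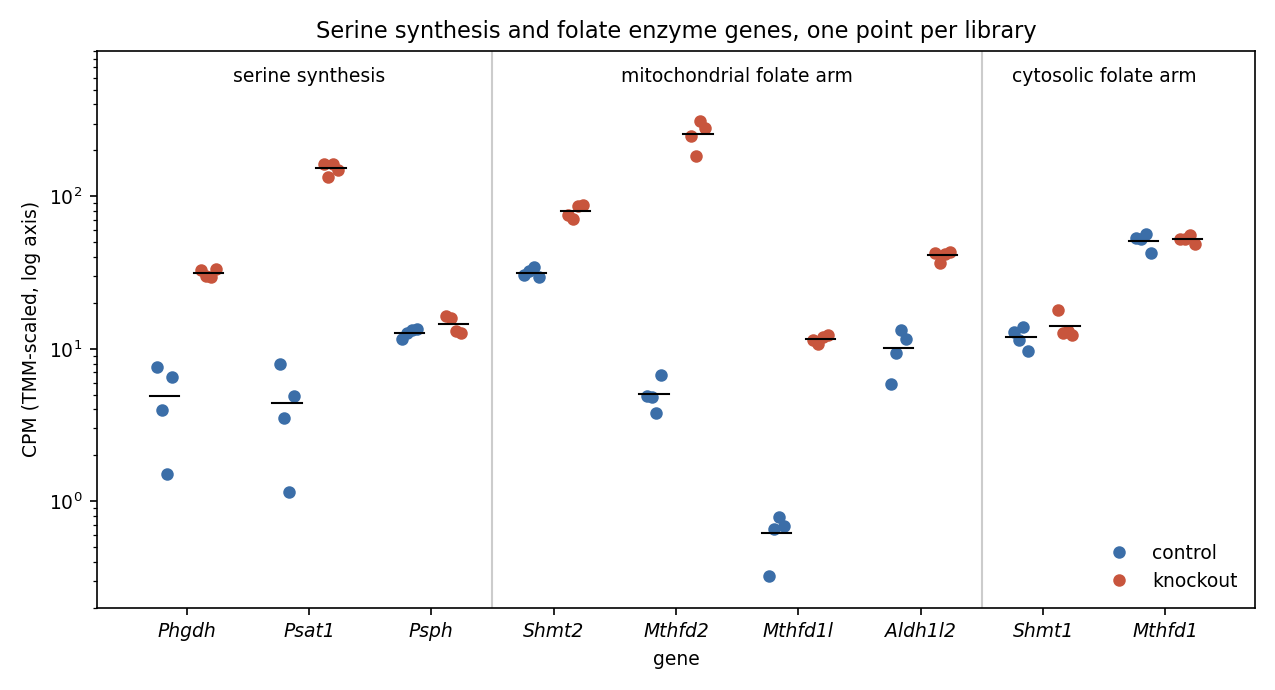
CPM (TMM-scaled, log axis) of the 9 enzyme genes, 1 point per library, with the mean of each group as a line. The points of the groups are apart for Phgdh, Psat1 and the 4 mitochondrial genes, with Mthfd2 between 184 and 309 CPM in the knockouts and between 3.79 and 6.68 in the controls, and they overlap for Psph, Shmt1 and Mthfd1.

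Phgdh (Entrez Gene 236539) lies on chromosome 3 from 98313171 to 98339969 of GRCm38 and encodes the NAD-dependent dehydrogenase that commits 3-phosphoglycerate to serine. The 4 control libraries held 94, 61, 21 and 104 counts in replicate order, and the 4 knockout libraries 783, 658, 719 and 843. The groups were fully apart (p = 0.0286 in a two-sided exact permutation of the labels, which 4 against 4 cannot go below). The mean rose from 4.91 ± 2.73 to 31.5 ± 1.87 CPM (SD, n = 4 each), or by 2.69 on the log2 scale (SE 0.33, Benjamini-Hochberg adjusted p = 7.2e-05 in edgeR).

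Psat1 (Entrez Gene 107272), on chromosome 19 from 15905123 to 15925059, encodes the aminotransferase of the following step, which takes its nitrogen from glutamate. It had 98, 54, 16 and 78 counts in the controls, again by replicate, and 3909, 2937, 3936 and 3756 in the knockouts. With 4.38 ± 2.83 against 152 ± 13.5 CPM (SD, n = 4 each) it had a log2 fold change of 5.14 (SE 0.37, edgeR adjusted p = 2.4e-06). No control library came near any knockout library (exact permutation test, p = 0.0286).

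Psph (Entrez Gene 100678), on chromosome 5 from 129765558 to 129787253, encodes the phosphatase that releases serine. It was at 11.6, 12.8, 13.2 and 13.5 CPM in control replicates 1 to 4 and at 16.5, 15.8, 13.1 and 12.8 CPM in knockout replicates 1 to 4, so the groups overlapped. The log2 fold change was 0.19, with a 95% interval from -0.058 to 0.43 (edgeR adjusted p = 0.17), which leaves out a change of the size of Phgdh or Psat1. In controls there were 0.0865 to 0.685 Psat1 counts for each Psph count, and in knockouts 8.51 to 12.4. That ratio was chosen after the values were seen and is given with no test.

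The controls were not alike for Phgdh and Psat1. Control replicate 3 had 1.5 CPM of Phgdh and 1.15 CPM of Psat1, where the other controls had 3.99 to 7.59 and 3.54 to 7.92. The coefficient of variation was 55.6% for Phgdh and 64.6% for Psat1 in the controls, and 5.95% and 8.84% in the knockouts. The same library had the lowest summed level of 7 adipocyte markers, 249 CPM against 996 to 1497 in the other controls and 712 to 2591 in the knockouts. None of these markers was at 0 in any library, and 0 of the 7 was past the threshold between the groups, as 44.7% of all genes were. In whole muscle, fewer cells of a type and less RNA per cell cannot be told apart. With the mean of the adipocyte markers as a covariate the log2 fold changes were 2.30 for Phgdh and 4.81 for Psat1, and without control replicate 3 they were 2.39 and 4.82, all past the threshold.

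**Figure D2:**
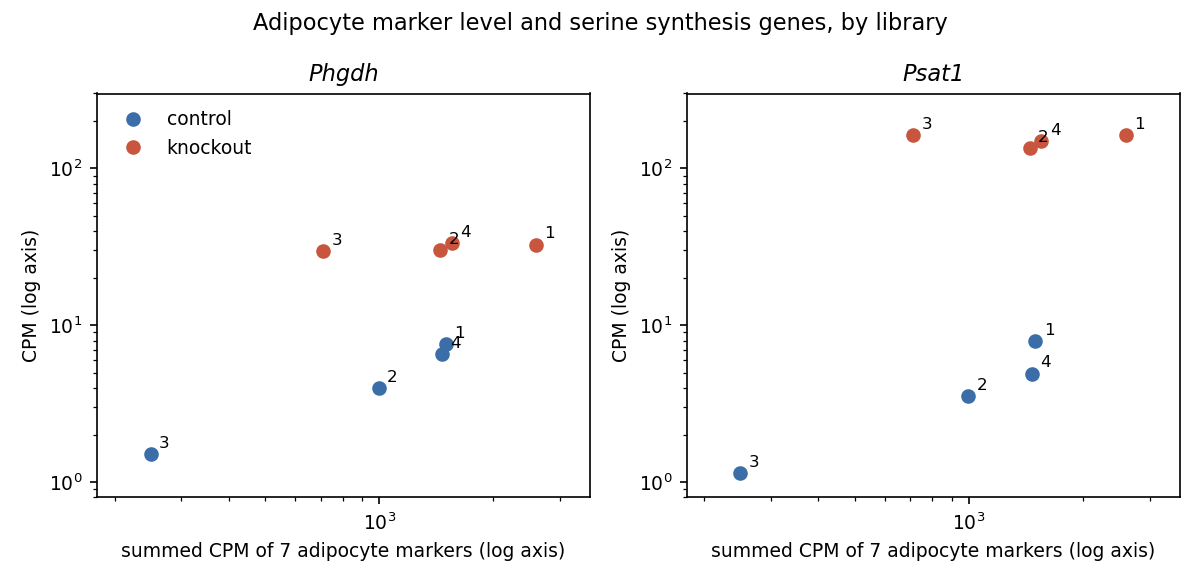
CPM of Phgdh and Psat1 against the summed CPM of 7 adipocyte markers in each library (both axes log, labelled by replicate number). Control replicate 3 is lowest on both axes, and the 4 knockouts lie above all controls over a range of adipocyte marker levels from 712 to 2591 CPM.

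In the mitochondrial arm, Shmt2 (Entrez Gene 108037, chromosome 10 from 127517123 to 127522444) encodes the serine hydroxymethyltransferase that splits serine into glycine and a one-carbon unit. The controls held 375, 491, 481 and 468 Shmt2 counts and the knockouts 1796, 1540, 2104 and 2191. Its level was 31.6 ± 2.19 CPM in the controls and 79.8 ± 8.43 CPM in the knockouts (SD, n = 4 each), which is a log2 fold change of 1.34 (SE 0.090, edgeR adjusted p = 1.5e-06), without overlap. Its span overlaps that of Ndufa4l2 on the other strand, which had 58 to 131 counts per library, and whether strand was used to assign reads is not stated.

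Mthfd2 (Entrez Gene 17768, chromosome 6 from 83305704 to 83317604) encodes the mitochondrial methylenetetrahydrofolate dehydrogenase and cyclohydrolase, an enzyme best known from embryos and dividing cells. From 61, 74, 53 and 106 counts in the controls it went to 5987, 4023, 7496 and 7034 counts in the knockouts. At 5.06 ± 1.2 against 256 ± 53.5 CPM (SD, n = 4 each) it changed by 5.65 on the log2 scale (SE 0.22, edgeR adjusted p = 8.1e-08). That was the largest change of the 9 genes, 50.5-fold between the means, and 53rd from the top by log2 fold change among all 14012 genes. Its relative Mthfd2l serves the same step in mitochondria. Mthfd2l was at 4.42 ± 0.457 CPM in the controls and 3.47 ± 0.391 CPM in the knockouts (SD, n = 4 each). Its log2 fold change of -0.35 was not past the threshold (edgeR adjusted p = 0.055). After TMM scaling every knockout library was nonetheless below every control library for Mthfd2l (exact permutation test, p = 0.0286). Per kb of exon, there was 0.832 to 1.55 times as much Mthfd2 as Mthfd2l in a control library and 51.3 to 113 times as much in a knockout library.

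Mthfd1l (Entrez Gene 270685, chromosome 10 from 3973075 to 4167081) encodes the synthetase that releases formate from mitochondrial folate for export to the cytosol. It was low in the controls, with 4, 10, 11 and 11 counts in replicates 1 to 4, and had 272, 236, 290 and 312 counts in the knockouts. With 0.615 ± 0.202 against 11.6 ± 0.70 CPM (SD, n = 4 each) it had a log2 fold change of 4.21 (SE 0.19, edgeR adjusted p = 1.8e-07). The lowest control library was within 1 count of the 3 that a count of 0 allows, so the size of the fold is less certain than its direction.

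Aldh1l2 (Entrez Gene 216188, chromosome 10 from 83487447 to 83534140) encodes the mitochondrial formyltetrahydrofolate dehydrogenase, which oxidises the formyl group to CO2 with formation of NADPH. Control libraries had 73, 144, 185 and 185 counts, and knockout libraries 1022, 803, 1012 and 1089. The level rose from 10.1 ± 3.18 to 41.1 ± 2.96 CPM (SD, n = 4 each), which is a log2 fold change of 2.02 (SE 0.19, edgeR adjusted p = 1.3e-05). For Shmt2, Mthfd2, Mthfd1l and Aldh1l2 the groups were again fully apart (exact permutation test, p = 0.0286 each).

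Among the knockouts, replicate 2 was the lowest library for 5 of the 6 genes that rose, with Phgdh as the exception, and replicate 4 was the highest for 4 of them. Mthfd2 varied most, from 184 CPM in replicate 2 to 309 CPM in replicate 3. Knockout replicate 2 also had the highest summed levels of the proliferation, macrophage and muscle progenitor markers described below, and their part in this spread was not tested.

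Neither listed gene of the cytosolic arm passed the threshold. Shmt1 (Entrez Gene 20425, chromosome 11 from 60788897 to 60811265), the cytosolic serine hydroxymethyltransferase, was at 12.9, 11.4, 13.8 and 9.64 CPM in control replicates 1 to 4 and at 18.1, 12.6, 13.1 and 12.4 CPM in knockout replicates 1 to 4. The groups overlapped, with knockout replicate 1 above the rest, and the log2 fold change was 0.23 (95% interval from -0.11 to 0.58, edgeR adjusted p = 0.21). Mthfd1 (Entrez Gene 108156, chromosome 12 from 76255232 to 76319820) encodes a single cytosolic protein with the dehydrogenase, cyclohydrolase and synthetase activities that MTHFD2 and MTHFD1L share between them in mitochondria. It was at 53.1, 52.7, 56.5 and 42.7 CPM in control replicates 1 to 4 and at 52.8, 52.3, 55.9 and 49.0 CPM in knockout replicates 1 to 4. Its log2 fold change was 0.036 (95% interval from -0.16 to 0.24, edgeR adjusted p = 0.75), with the sign turning to -0.00845 under RLE size factors.

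How many of the 9 genes passed the threshold depended on the scaling of the libraries. A change of scaling moves all genes by nearly the same amount, so distances from the median of all genes can hardly change. Such distances therefore do not show which scaling is right. TMM factors lay between 0.747 and 0.844 for control and between 1.19 and 1.33 for knockout libraries. With library totals alone in their place, the median over all genes moved from 0.065 to 0.73 on the log2 scale, and all 9 genes were past the threshold, with Psph at 0.85, Shmt1 at 0.90 and Mthfd1 at 0.71. Relative to the median of all genes, Psph lay 0.12 above under either scaling, Shmt1 0.17 above and Mthfd1 at -0.029 and -0.025, while Shmt2, the least changed of the other 6, lay 1.27 above.

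To compare the arms free of the scaling, each mitochondrial gene was divided by its cytosolic counterpart within a library. The log2 ratio of Mthfd2 to Mthfd1 counts was -3.42, -3.43, -3.88 and -2.67 in control replicates 1 to 4 and 2.24, 1.81, 2.47 and 2.51 in knockout replicates 1 to 4. A control library thus held 0.0672 to 0.156 Mthfd2 counts for each Mthfd1 count, and a knockout library 3.52 to 5.71. The ratio of Mthfd1l to Mthfd1 rose by 4.19 on the log2 scale, from -6.36 ± 0.58 to -2.17 ± 0.13, and that of Shmt2 to Shmt1 by 1.11, from 1.41 ± 0.17 to 2.52 ± 0.34 (SD, n = 4 each). In these 3 ratios no library of one group fell within the range of the other (exact permutation test, p = 0.0286 each, adjusted over 4 ratios p = 0.0381).

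The last ratio, of Aldh1l2 to Aldh1l1, is less clear. Aldh1l1, the cytosolic formyltetrahydrofolate dehydrogenase, was at 15.4 ± 4.97 CPM in the controls and 23.6 ± 9.56 CPM in the knockouts (SD, n = 4 each), which is a log2 fold change of 0.62 that was not past the threshold (edgeR adjusted p = 0.11). The log2 ratio was -1.77, -0.59, 0.56 and -0.63 in control replicates 1 to 4 and 0.22, 0.83, 1.6 and 0.90 in knockout replicates 1 to 4. Control replicate 3, the library low in adipocyte markers, lay above knockout replicate 1, and the mean difference of 1.5 did not pass 0.05 (exact permutation test, p = 0.0571).

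**Figure D3:**
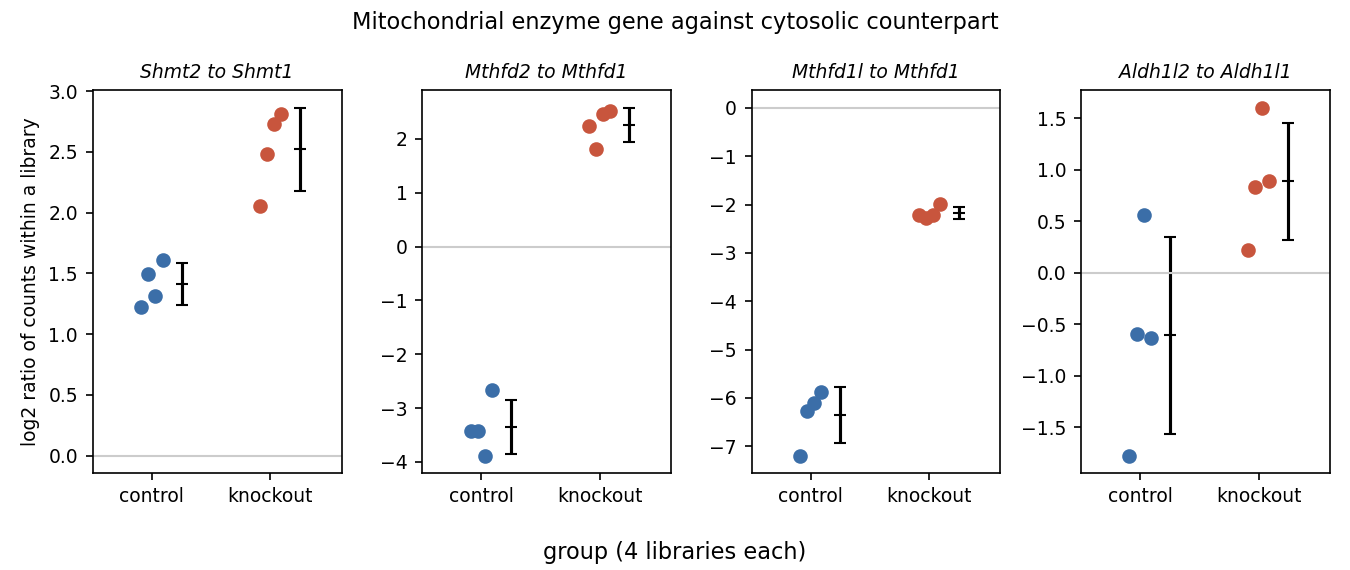
Log2 ratio of the counts of each mitochondrial enzyme gene to those of its cytosolic counterpart, 1 point per library, with the mean and SD of each group (n = 4) as bars, each panel on its own axis. The groups are apart by 5.61 for Mthfd2 to Mthfd1, by 4.19 for Mthfd1l to Mthfd1 and by 1.11 for Shmt2 to Shmt1, and they overlap for Aldh1l2 to Aldh1l1.

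Levels of different genes were compared as CPM per kb of the deposited exon width. In control muscle the order was led by Mthfd1 at 15.4 ± 1.78 CPM per kb and Shmt2 at 13.7 ± 0.951 (SD, n = 4), whose libraries overlapped. Psph at 8.30 and Shmt1 at 5.78 followed, each apart from its neighbours. Phgdh at 2.62, Mthfd2 at 2.45, Psat1 at 1.76 and Aldh1l2 at 1.67 formed a group of overlapping neighbours, and Mthfd1l at 0.142 CPM per kb was last.

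In the knockouts the order was another. Mthfd2 led at 124 ± 25.9 CPM per kb, then Psat1 at 61.1 ± 5.41 and Shmt2 at 34.6 ± 3.66 (SD, n = 4), each without overlap with its neighbours. Phgdh at 16.8 and Mthfd1 at 15.8 CPM per kb overlapped, as did Aldh1l2 and Shmt1 at 6.82 and 6.79, with Psph at 9.46 between these pairs. Mthfd1l stayed last at 2.68 ± 0.162 CPM per kb. Of the summed level of Shmt1 and Shmt2 per kb, Shmt2 made up 67.7 to 73.3% of a control and 78.8 to 86.3% of a knockout library.

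**Figure D4:**
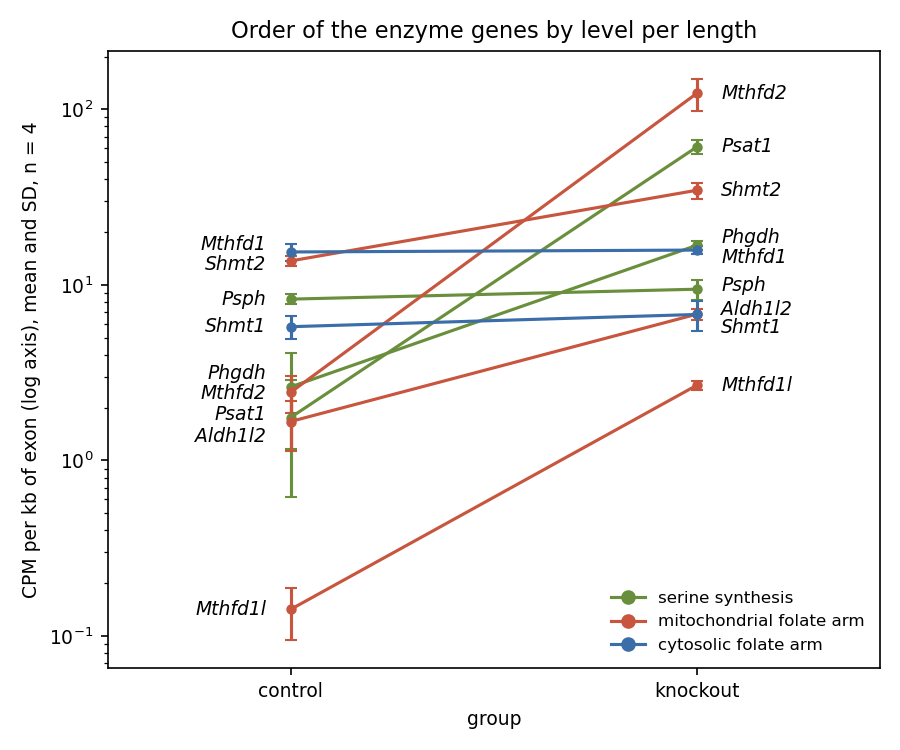
Mean level per length (CPM per kb of exon, log axis) of the 9 enzyme genes in each group, with the SD of 4 libraries as bars and colours for the pathway arm. Mthfd2 moves from 2.45 to 124 CPM per kb and from the middle of the order to its top, while Mthfd1 stays near 15 to 16.

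To look for a shared element, the RefSeq promoter windows on GRCm38.p6 (250 bases before to 50 after the start) were read for 8 of the 9 genes. No window held TGATGNAA on either strand, the core of the composite C/EBP-ATF element, which is in 3.97% of the 32851 windows of all genes. That says only that these letters are not in those windows. Mthfd2 and Psat1 each held 3 CCAAT boxes, counted on both strands, where 3.37% of all windows held 3 or more, and the other 6 genes held 0 to 2. The CCAAT box was looked for after the windows had been read. The 150 bases before the start are shown for the mitochondrial and the serine synthesis gene that changed most and for Mthfd1, the cytosolic counterpart that did not pass the threshold, 5′ to 3′ on the strand of the gene, with CCAAT or its complement ATTGG in capitals. One of the 3 boxes of Psat1 lies after the start and is not shown, and the window of its other annotated start is not part of these counts.
Mthfd2 (chr6:83317605-83317754, minus strand): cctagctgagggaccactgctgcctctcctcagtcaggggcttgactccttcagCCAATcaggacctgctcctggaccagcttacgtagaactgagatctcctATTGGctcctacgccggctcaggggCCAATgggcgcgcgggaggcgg
Psat1 (chr19:15925060-15925209, minus strand): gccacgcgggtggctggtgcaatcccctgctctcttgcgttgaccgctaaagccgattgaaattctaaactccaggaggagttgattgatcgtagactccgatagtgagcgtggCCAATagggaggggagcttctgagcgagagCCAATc
Mthfd1 (chr12:76255082-76255231, plus strand): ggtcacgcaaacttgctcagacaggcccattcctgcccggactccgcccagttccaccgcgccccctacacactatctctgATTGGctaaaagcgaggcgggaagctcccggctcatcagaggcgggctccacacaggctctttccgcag

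The enzymes were set beside the genes that supply and use their products. Of 14 measured genes for folate handling, 3 rose, 0 fell and 11 were not past the threshold, with a median log2 fold change of 0.29 against 0.065 over all genes. The share that rose, 21.4%, was near the 23.6% of all genes. Slc19a1, the reduced folate carrier of the plasma membrane, rose by 0.92 (SE 0.15, edgeR adjusted p = 5.1e-04). Fpgs, which adds the glutamate tail that keeps folate in the cell, rose by 0.78 (SE 0.11, edgeR adjusted p = 2.0e-04). Tyms, thymidylate synthase, rose by 1.5 from a level of 0.592 ± 0.153 CPM (SD, n = 4, edgeR adjusted p = 0.0029).

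Among 17 genes for transport and use of serine and glycine, 6 rose, 3 fell and 8 were not past the threshold, with a median log2 fold change of 0.48. That is 35.3% higher and 17.6% lower, beside 23.6% and 21.1% of all genes, and without knockout replicate 1 the count that rose was 3. Slc6a9, the glycine transporter GlyT1, rose from 7.05 ± 1.14 to 75.3 ± 7.96 CPM (SD, n = 4 each), which is a log2 fold change of 3.41 (edgeR adjusted p = 7.8e-08), and Slc1a4, a transporter of neutral amino acids including serine, by 2.91 (edgeR adjusted p = 1.3e-05). Sds, serine dehydratase, went from 3, 4, 3 and 0 counts in the controls to 23, 23, 37 and 40 in the knockouts (edgeR adjusted p = 6.8e-04), control counts too low to fix the size of the fold. The genes that fell were Sfxn3, a mitochondrial serine transporter, by 0.75, Dld, the dihydrolipoamide dehydrogenase shared by glycine cleavage and other mitochondrial complexes, by 0.48, and Gcsh, the lipoyl carrier protein of glycine cleavage, by 0.37 (edgeR adjusted p = 0.0010 or lower for each). Sfxn1 and Sfxn2, of the same family as Sfxn3, had log2 fold changes of 1.24 and 0.48, not past the threshold (edgeR adjusted p = 0.042 and 0.067).

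Of 9 measured genes listed for the methionine cycle and related reactions, 5 rose, 1 fell and 3 were not past the threshold. Their median log2 fold change was 0.41. The genes that rose and fell are 55.6% and 11.1% of the list, beside 23.6% higher and 21.1% lower over all genes. Those not past the threshold were Mtr, Mtrr and Mat2a, at 0.20, -0.022 and -0.12 (edgeR adjusted p = 0.13, 0.86 and 0.54). Ahcy, adenosylhomocysteinase, rose by 0.41 (edgeR adjusted p = 0.0055). Sardh, a mitochondrial sarcosine dehydrogenase that feeds folate, rose by 1.82 (edgeR adjusted p = 3.7e-05), Gnmt, glycine N-methyltransferase, by 2.86 (edgeR adjusted p = 0.0011) and Ahcyl2, a relative of adenosylhomocysteinase, by 0.58 (edgeR adjusted p = 0.0020). Mat2b, the regulatory subunit of methionine adenosyltransferase, fell by 0.29 (edgeR adjusted p = 0.0078), a call lost in 7 of the 8 fits that leave out 1 library. Purine synthesis uses formyl folate at some of its steps only. Of 8 genes listed for it, 1 rose, 3 fell and 4 were not past the threshold, with a median of -0.097. Gart was among the 4, at -0.025 (edgeR adjusted p = 0.77). As shares, 12.5% were higher and 37.5% lower, beside the same 23.6% and 21.1% of all genes. Ppat, the first committed enzyme, fell by 0.82 (edgeR adjusted p = 4.1e-05), Paics by 0.60 (edgeR adjusted p = 1.2e-04) and Adsl by 0.52 (edgeR adjusted p = 1.5e-04), while Atic, which uses formyl folate in the last steps, rose by 0.60 (edgeR adjusted p = 6.9e-05). With library totals alone none of the 7 genes that fell in these lists was called lower, only Ppat and Sfxn3 kept a negative sign, and Gcsh and Mat2b were called higher.

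Transcription factors of the stress response and their partners were read as a further list. All 9 of 9 rose, beside 23.6% of all genes, with a median log2 fold change of 2.21. The study had already reported some of them, Atf4 included, as raised in these mice. It also named Mthfd2 and Psat1 among the stress response genes that it found induced. Atf4, whose product is known to act on serine synthesis genes, went from 173 ± 17.2 to 413 ± 35.7 CPM (SD, n = 4 each), which is a log2 fold change of 1.26 (SE 0.095, edgeR adjusted p = 3.0e-06). Trib3, a pseudokinase induced by ATF4 and CHOP, rose by 6.98 (edgeR adjusted p = 2.9e-08), Myc by 2.98 (edgeR adjusted p = 8.5e-08) and Nupr1 by 2.21 (edgeR adjusted p = 3.0e-07).

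Since MTHFD2 is also a protein of dividing cells, markers of other cells and of division are given beside it. Of 10 proliferation markers 3 rose (Pcna, Rrm2 and Birc5) and 0 fell in edgeR, while DESeq2 called 7 higher and edgeR called 5 higher without knockout replicate 1 or 3, and 1 lower without knockout replicate 2. Their summed level lay between 32.8 and 35.5 CPM in control and between 45 and 69.1 CPM in knockout libraries, with Ccnb1 at 0 in at least 1 library. Of 6 muscle progenitor and regeneration markers 4 rose, led by the embryonic and perinatal myosins Myh3 and Myh8. Pax7 and Myod1 were not past the threshold, with log2 fold changes of 0.28 and 0.14 (edgeR adjusted p = 0.28 and 0.68). The sum of the 6 lay between 32.9 and 39.9 CPM in control and between 762 and 1610 CPM in knockout libraries. Most of the knockout sum was Myh3 and Myh8, with knockout means of 312 and 673 CPM. Of 9 macrophage markers 1 rose (Cd68) and 0 fell in edgeR, with a median log2 fold change of 0.86, while DESeq2 called 4 higher, as did edgeR without control replicate 1. The macrophage markers had sums of 72.0 to 189 against 161 to 296 CPM, which overlapped. Fibroblast markers were lower in 5 of 7 and endothelial markers in 4 of 5 cases, with 0 higher in either list. The fibroblast markers that fell were Col1a1, Col1a2, Col3a1, Dcn and Thy1. Pdgfra and Lum were not past the threshold, at -0.15 and 0.42 (edgeR adjusted p = 0.39 and 0.020). By staining of sections the paper reports fibrosis in this muscle of the knockouts. As shares in edgeR, 30% of the proliferation, 66.7% of the progenitor and 11.1% of the macrophage markers were higher, beside 23.6% of all genes. Lower were 71.4% of the fibroblast and 80% of the endothelial markers, beside 21.1% of all genes. The part of these cells in the levels of the 9 enzyme genes was not tested. With the mean of the macrophage markers as a covariate, the 6 genes stayed past the threshold, Mthfd2 at 5.65, Psat1 at 4.52 and Phgdh at 1.99.

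When any 1 library was left out, the same 6 of the 9 genes were past the threshold and the other 3 were not. Over these fits the log2 fold change lay between 5.51 and 5.82 for Mthfd2, between 4.82 and 5.55 for Psat1, between 4.02 and 4.33 for Mthfd1l, between 2.39 and 2.95 for Phgdh, between 1.85 and 2.18 for Aldh1l2 and between 1.26 and 1.38 for Shmt2. DESeq2 called 6 of the 9 genes too, among 23.2% of all genes that it called higher.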

How the data were processed

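Raw counts per gene were deposited by the authors, who captured polyadenylated RNA with a strand-specific kit, demultiplexed with bcl2fastq 2.20.0.422, trimmed with cutadapt, mapped read pairs to GRCm38 with STAR 2.5.4b and counted them on exons with Rsubread, without duplicate, chimeric, multimapping or poorly mapped reads. Genes with few reads were left out by the authors, and the lowest total in the table is 51. The annotation release and the use of strand are not given in the sources used here. The deposited FPKM values, made by the authors from these counts, served only to check the order of levels per length. The log2 fold changes and p-values of the authors' DESeq2 1.32.0 comparison in the same table were not used. The labels name TRIzol and the paper a column kit for the RNA.

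All 14012 genes were tested with edgeR 4.0.16 (glmQLFit and glmQLFTest, R 4.3.3) on TMM-scaled counts, with no term but the label, and p-values were adjusted by Benjamini-Hochberg and read at 0.01, the threshold of the study. The standard error is the fold change over the root of F. Count ratios were taken with 0.5 added to each count. For single values the labels were permuted exactly, in all 70 ways. The genes named are the 9 enzymes, Aldh1l1, Mthfd2l, Atf4, Grpel1 and, in each related list, up to 3 genes per direction with the smallest p. A further gene that the rule names is not reported here. Marker genes, Mtr, Mtrr, Mat2a, Ahcy and Gart, and Sfxn1 and Sfxn2 beside Sfxn3, were named after their values were seen. The members and lists were chosen with earlier results of these data known. Mat1a, Bhmt, Dmgdh, Pipox, Ftcd and Folr1 were not analysed here, nor were the proteins compared. The alternatives were other scalings, a filter on low counts, DESeq2 1.42.0, a replicate block, marker covariates and each library left out, and the procedure was tested on simulated data.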

Additional observations from a re-analysis of the deposited data

Results flagged for a closer look

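Of 90 groups of 4 values looked at, 4 held a library whose gap to its nearest neighbour took more of the range of the group than Dixon's 95% critical value, and chance alone flags about 1 in 20 such groups. Shmt1 was at 18.1 CPM in knockout replicate 1 and at 12.4 to 13.1 in the other knockouts. Ahcyl2 was at 49.995 CPM in the same library and at 38.2 to 40.1 in the others. Paics was at 95.9 CPM in knockout replicate 2 and at 88.8 to 89.8 in the others. Trib3 was at 1.95 CPM in control replicate 4 and at 0.851 to 0.969 in the other controls.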

How the results depend on the processing

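The count of 6 enzyme genes called higher and 0 lower was the same under RLE and upper-quartile factors, the filter on low counts, DESeq2, the replicate block, both marker covariates and each library left out, and it was 9 with library totals alone. Library totals alone also gave 45 genes higher and 0 lower in the related lists (24 and 7 with TMM) and 24 higher and 8 lower in the marker lists (10 and 16 with TMM), and turned the sign of Mthfd2l (0.32), Gcsh (0.29), Dld (0.19), Mat2b (0.38), Paics (0.076), Adsl (0.15) and Grpel1 (0.61), under a scaling that lifts the median of all genes. DESeq2 called 18 marker genes higher, 7 of them for proliferation and 4 for macrophages. Mthfd1, near 0 except with library totals, had a log2 fold change of -0.00845 with RLE factors, -0.00811 with DESeq2, -0.0423 without control replicate 4 and -0.0272 without knockout replicate 3, and from -0.0423 to 0.0862 with any 1 library left out. Tyms passed above the threshold without control replicate 2, to an adjusted p of 0.0109.

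Replicate numbers correlated by 0.0031 to 0.42 within pairs and were not taken as a pairing, and 3 of 4 libraries correlated best with their own number. With the replicate block 17 marker genes were called higher and Mat2b was no longer called, as also with upper-quartile factors. Aldh1l1 was called higher with it (0.59, edgeR adjusted p = 0.0016), and no other named gene changed its call. Within pairs the exact permutation test cannot go below p = 0.125, the value of the replicate block for the ratio differences of 1.11 (Shmt2 to Shmt1), 5.61 (Mthfd2 to Mthfd1) and 4.19 (Mthfd1l to Mthfd1). With 1 library left out these ranged from 1.01 to 1.26, from 5.43 to 5.84 and from 3.91 to 4.34, at an exact permutation p = 0.0571, the smallest that 4 against 3 allow. The order of levels did not move with RLE factors or FPKM, and no promoter held TGATGCAAT. The low control counts of Mthfd1l, 4 to 11, limit the precision of its fold.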
